A study of Rattus norvegicus with 36 samples.

Results

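The genes described here encode soluble hydrolases and membrane and lipid-handling proteins of the lysosome, with the cathepsins left out. They were taken by gene symbol from a list of 34, and 33 of them were rows of the deposited table of 23487 genes. The 34th, Sgsh, was not analysed here. All 33 passed the filter on low counts and were among the 14606 genes tested. By role, 20 encode hydrolases: 5 of glycogen and glycoproteins, 7 of sphingolipids, 5 of glycosaminoglycans and 3 of other lipids and proteins. The other 13 encode 10 membrane proteins and 3 soluble lipid-handling proteins.

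Lysosomes are acidic compartments in which macrophages break down what they have taken up. Hydrolases cut glycans, lipids and proteins into small products, membrane proteins protect the limiting membrane and carry the products out, and small soluble proteins hand lipids to enzymes or to exporters. Alveolar macrophages take up inhaled particles into phagosomes that fuse with lysosomes, and carbon black and titanium dioxide are not degraded there.

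The cells were alveolar macrophages taken from rats (strain F344, males), held in culture medium with serum for 5 days and exposed in vitro for 4 days, after which their RNA was sequenced. The particles were the carbon black Printex90 and 3 kinds of titanium dioxide, labelled G1-1, G3-1 and Bayertitan. Each had its own overload, non-overload and control condition with 3 libraries labelled as biological replicates, 36 libraries in 12 groups. The sources used here give no amounts of particles for the words overload and non-overload. The labels do not say whether replicates came from different animals. Each p-value sets a difference against the spread between libraries within groups, estimated over all 12 groups, and whether that includes a spread between animals is not known. No control library was shared between particles.

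Total counts per library lay between 26.1 and 43.2 M. Alveolar macrophage markers were at high levels in every library, for example Mrc1 at 917 to 1233 CPM (the count divided by the scaled library size in M) and Fabp4 at 1001 to 1562 CPM, whereas Marco did not exceed 1.09 CPM in any library. Epithelial markers were present too: Krt7 lay between 485 and 1062 CPM and Cdh1 between 138 and 334 CPM, while the surfactant gene Sftpc was at 0 in 34 libraries. The fibroblast collagen gene Col3a1 stood apart at 13.6 to 110 CPM in 8 libraries, against at most 2.88 CPM in the other 28. Those 8 were replicate 2 of G1-1 overload, of Printex90 non-overload and of Printex90 control, replicates 1 and 2 of G3-1 overload and of G3-1 control, and replicate 1 of Bayertitan non-overload. In RNA from a whole culture, fewer cells of a type and less RNA per cell cannot be told apart.

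Many lysosomal genes of mammals carry, close to their start site, a palindrome known as the CLEAR element, which transcription factors of the TFEB family bind. RefSeq promoter sequences of the GRCr8 build, 300 bases with 250 before the start site and 50 from it on, were held for 27 of the 33 genes, and none for Hexa, Arsa, Asah1, Arsb, Ppt1 and Psap. The hexamer CACGTG, which is its own reverse complement, was found in 7 of the 27 (25.9%), against 6.42% of 33469 promoters of the build. The same 7 held the overlapping 8-base form CACGTGAC on one strand or the other, against 1.85% of all promoters, and 4 of them held TCACGTGA, against 0.777%. The full CLEAR palindrome was found in Galc alone among the 27, and in 0.233% of all promoters. The 7 comprised 4 of 15 hydrolases and 3 of 12 membrane and lipid-handling proteins with a sequence. The share was not particular to these genes. Among other lysosomal genes, in lists described below, CACGTG was found in 20% of 15 hydrolases and 29.2% of 24 membrane proteins. It was found in 15.4% of 13 genes of the vacuolar ATPase, 18.2% of 11 cathepsins and legumain, and 36.4% of 22 genes that deliver lysosomal enzymes. A match is a run of letters, and binding was not measured. The stretches below are shown because they hold these matches, with CACGTG in capitals and 20 bases on each side, followed by the whole promoters of Lamp1 with its 5 copies and Mcoln1 with its 2, and that of Naglu, the gene with the largest mean overload response among the 33, which holds no CACGTG. All run 5′ to 3′ on the strand of the gene, with GRCr8 positions.
Gaa, chr10:105028268-105028313, + strand: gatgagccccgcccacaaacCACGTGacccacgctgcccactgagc
Idua, chr14:1190906-1190951, - strand: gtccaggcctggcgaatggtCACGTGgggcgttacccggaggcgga
Galc, chr6:123245554-123245599, - strand: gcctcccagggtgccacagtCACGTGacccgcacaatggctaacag
Glb1, chr8:122963598-122963643, + strand: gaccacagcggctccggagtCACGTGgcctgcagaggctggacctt
Cln3 distal copy, chr1:190597970-190598015, - strand: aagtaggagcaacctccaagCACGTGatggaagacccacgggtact
Cln3 proximal copy, chr1:190597942-190597987, - strand: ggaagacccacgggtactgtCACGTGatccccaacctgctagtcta
Lamp1, chr16:83075014-83075313, - strand: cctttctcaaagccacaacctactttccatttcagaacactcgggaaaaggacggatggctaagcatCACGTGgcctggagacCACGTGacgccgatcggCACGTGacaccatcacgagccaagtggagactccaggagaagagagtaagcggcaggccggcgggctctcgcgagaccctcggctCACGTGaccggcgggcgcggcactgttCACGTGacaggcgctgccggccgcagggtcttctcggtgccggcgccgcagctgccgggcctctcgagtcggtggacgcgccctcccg
Mcoln1, chr12:6358008-6358307, + strand: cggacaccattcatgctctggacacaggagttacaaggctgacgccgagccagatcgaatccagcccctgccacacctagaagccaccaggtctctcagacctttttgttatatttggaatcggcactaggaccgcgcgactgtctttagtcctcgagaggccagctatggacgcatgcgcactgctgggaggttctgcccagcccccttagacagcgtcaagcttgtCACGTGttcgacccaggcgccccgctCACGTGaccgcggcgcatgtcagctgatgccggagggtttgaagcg
Naglu, chr10:86501614-86501913, + strand: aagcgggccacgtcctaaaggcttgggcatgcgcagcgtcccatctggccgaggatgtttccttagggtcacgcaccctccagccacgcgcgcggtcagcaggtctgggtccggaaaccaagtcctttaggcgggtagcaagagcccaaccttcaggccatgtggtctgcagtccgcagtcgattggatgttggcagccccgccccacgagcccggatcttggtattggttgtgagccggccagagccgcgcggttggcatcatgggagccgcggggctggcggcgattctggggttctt

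Macrophages exposed to G1-1 overload had higher levels of many of these genes than their controls. Of the 33, 18 were higher than in G1-1 control at an adjusted p under 0.05 and 0 were lower (edgeR quasi-likelihood test, Benjamini-Hochberg adjustment over all genes tested). Over all genes tested, 28.1% were called in this comparison, 13.7% as higher. The median log2 fold change was 0.22 over the 33 genes and -0.02 over all genes tested, and the responses ran from -0.12 to 0.61. Every overload library exceeded every control library for 20 of the 33 genes and for 2581 of the 14606 genes tested. Taking both directions, 60.6% of the 33 genes and 37.5% of all genes tested had no overlap. Together the 33 genes took 2.29 ± 0.106% of the counts in G1-1 overload and 2.11 ± 0.0792% in G1-1 control (SD, n = 3 each). The groups overlapped, at 2.18 to 2.38% and 2.03 to 2.19%. Psap took a large part of the sum, which in G1-1 control replicate 1 was 2.19% with Psap and 1.32% without it.

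The clearest response among the hydrolases was that of Naglu, the N-acetylglucosaminidase that trims heparan sulfate. It stood at 164, 147 and 179 CPM in G1-1 overload, against 109, 104 and 108 CPM in G1-1 control. The groups did not overlap, and the log2 fold change was 0.61 ± 0.07 (SE), a level 52.6% higher (edgeR adjusted p = 1.31e-07). Gaa, the acid glucosidase that breaks down glycogen, was at 465, 459 and 534 CPM in G1-1 overload, against 335, 306 and 328 CPM in G1-1 control. Its groups were likewise apart, with a log2 fold change of 0.59 ± 0.07 (adjusted p = 1.47e-07). Neu1, the sialidase that removes sialic acid from glycoproteins, was at 97.6, 94.3 and 111 CPM in G1-1 overload, against 75.3, 67.8 and 72.7 CPM in G1-1 control. All 3 overload libraries lay above the controls, and the log2 fold change was 0.49 ± 0.08 (adjusted p = 1.61e-05). Smpd1, the acid sphingomyelinase, was at 81.0, 83.9 and 90.9 CPM in G1-1 overload, against 65.1, 65.2 and 66.6 CPM in G1-1 control. The controls were close together and below every overload library, with a log2 fold change of 0.38 ± 0.05 (adjusted p = 4.43e-06).

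Among the membrane proteins, Mcoln1 and Npc1 responded most to G1-1 overload. Mcoln1, the cation channel that releases calcium from lysosomes, was at 52.0, 48.7 and 61.0 CPM in G1-1 overload, against 38.7, 36.2 and 38.0 CPM in G1-1 control. No library of one group reached the other, and the log2 fold change was 0.52 ± 0.06 (edgeR adjusted p = 1.47e-07). Npc1, which moves cholesterol out of the lysosome through its membrane, was at 228, 216 and 247 CPM in G1-1 overload, against 166, 153 and 167 CPM in G1-1 control. Its groups did not overlap, and the log2 fold change was 0.51 ± 0.07 (adjusted p = 9.08e-07). Npc2, the soluble protein that hands cholesterol to Npc1, rose by 0.25 ± 0.08 (adjusted p = 0.0196). Its log2 fold change in G1-1 non-overload against control was 0.21 (95% interval 0.05 to 0.37). That of G1-1 overload against non-overload was 0.04 (interval -0.13 to 0.20), and neither was called. Replicate 3 was the highest of the G1-1 overload libraries for each of these 3 genes.

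**Figure D1:**
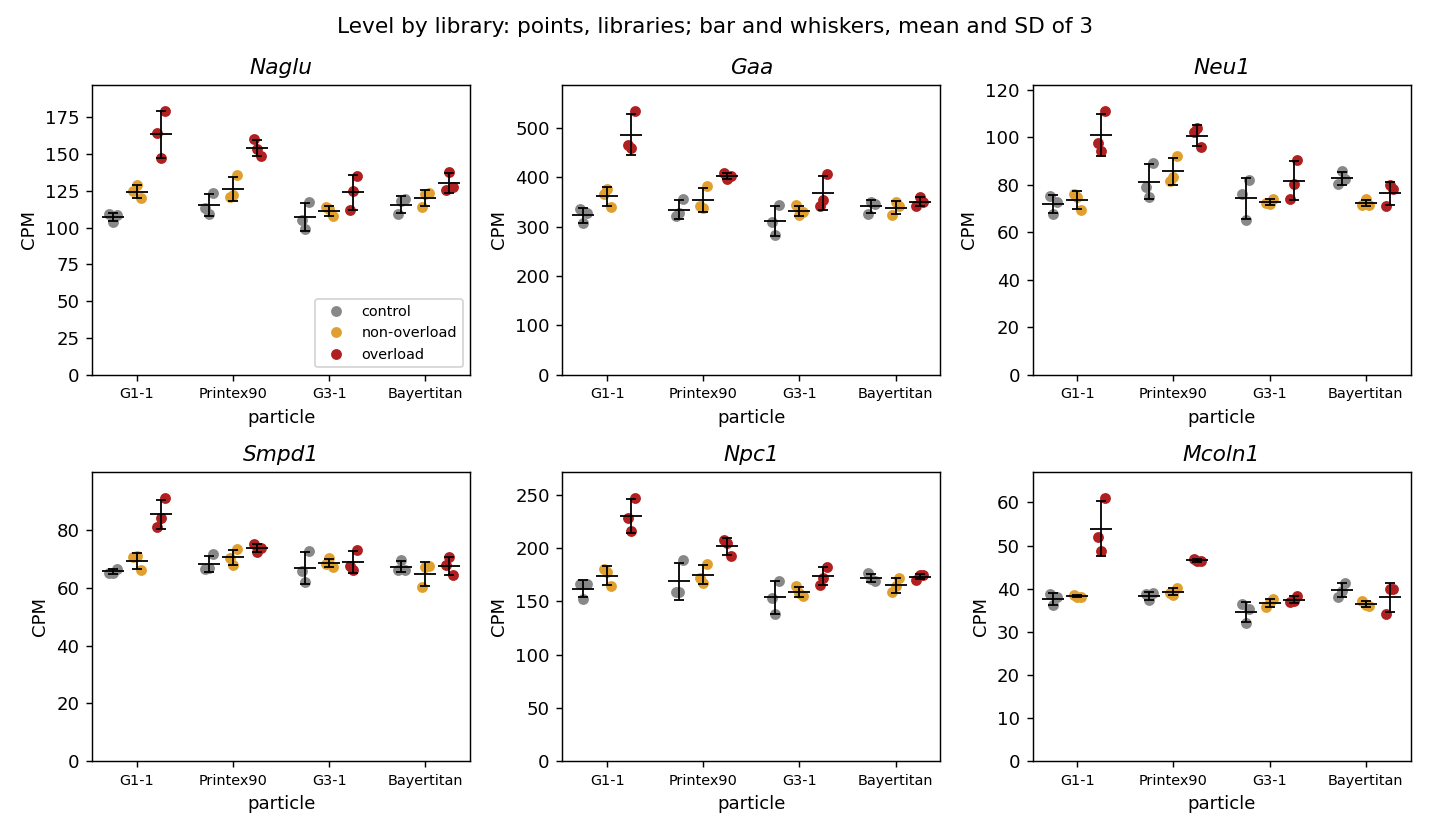
Level in CPM (vertical axis, from 0) of 6 lysosomal genes in each of 36 libraries by particle (horizontal axis) and condition, with bars for the mean and whiskers for the SD of 3 libraries. In G1-1, all overload libraries of the 6 genes lie above the control libraries, for example Mcoln1 at 48.7 CPM or more against at most 38.7 CPM, and in Bayertitan overload and control lie close together or overlap.

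The remaining calls in G1-1 overload were smaller. Of the sphingolipid hydrolases, Hexa, a subunit of beta-hexosaminidase, rose by 0.39 ± 0.08 (edgeR adjusted p = 0.000551) and Arsa, the sulfatase that acts on sulfatide, by 0.32 ± 0.07 (adjusted p = 0.000889), both on the log2 scale. Of the glycosaminoglycan hydrolases, Idua, the iduronidase, rose by 0.34 ± 0.07 (adjusted p = 0.000179) and Arsb, a sulfatase of dermatan and chondroitin sulfate, by 0.23 ± 0.06 (adjusted p = 0.00519). Tpp1, a tripeptidyl peptidase, rose by 0.28 ± 0.07 (adjusted p = 0.00262). Ctns, the exporter of cystine, rose by 0.33 ± 0.08 (adjusted p = 0.00173), Lamp1 by 0.30 ± 0.06 (adjusted p = 0.000517) and Lamp2 by 0.21 ± 0.07 (adjusted p = 0.0146), the last 2 being major glycoproteins of the limiting membrane. Cln3, a membrane protein lost in juvenile Batten disease, Slc17a5, the exporter of sialic acid, and Psap, the precursor of the saposins that help sphingolipid hydrolases, rose by 0.28 ± 0.09, 0.24 ± 0.07 and 0.22 ± 0.07 (adjusted p = 0.0268, 0.0103 and 0.0187). Cln3 was the called gene whose libraries overlapped: one G1-1 overload library had 23.8 CPM and one control library 25.2 CPM. When single libraries were left out, 5 calls were lost, those of Cln3, Lamp2, Npc2, Psap and Slc17a5. Without overload replicate 3 their log2 fold changes were 0.18, 0.19, 0.16, 0.16 and 0.17 (adjusted p = 0.234, 0.0759, 0.179, 0.145 and 0.109). The calls of Cln3, Npc2 and Psap were also lost without control replicate 2 (0.24, 0.22 and 0.18; adjusted p = 0.116, 0.0777 and 0.112), those of Cln3 and Lamp2 without overload replicate 1 (0.26 and 0.17; adjusted p = 0.0792 and 0.0967), that of Cln3 without control replicate 1 (0.28, adjusted p = 0.0684) and that of Lamp2 without control replicate 3 (0.19, adjusted p = 0.0672).

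The other 15 genes were not called in G1-1 overload, and their values were not uniform. Lipa, the acid lipase of cholesteryl esters, was at 2185, 1845 and 2174 CPM in G1-1 overload, against 2203, 1967 and 2057 CPM in G1-1 control, a log2 fold change of -0.01 with a 95% interval from -0.16 to 0.15. Ppt1, a thioesterase that removes palmitate from proteins, had -0.12 (interval -0.27 to 0.04), and Gm2a, which presents a ganglioside to beta-hexosaminidase, had -0.05 (interval -0.21 to 0.11). For these 3 genes the upper bound lay well below the response of Naglu or Gaa in the same libraries. The interval of Gusb, the beta-glucuronidase, ran from 0.01 to 0.41 and so included the 0.34 of Idua. These 4 genes were singled out after their values were seen.

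**Figure D2:**
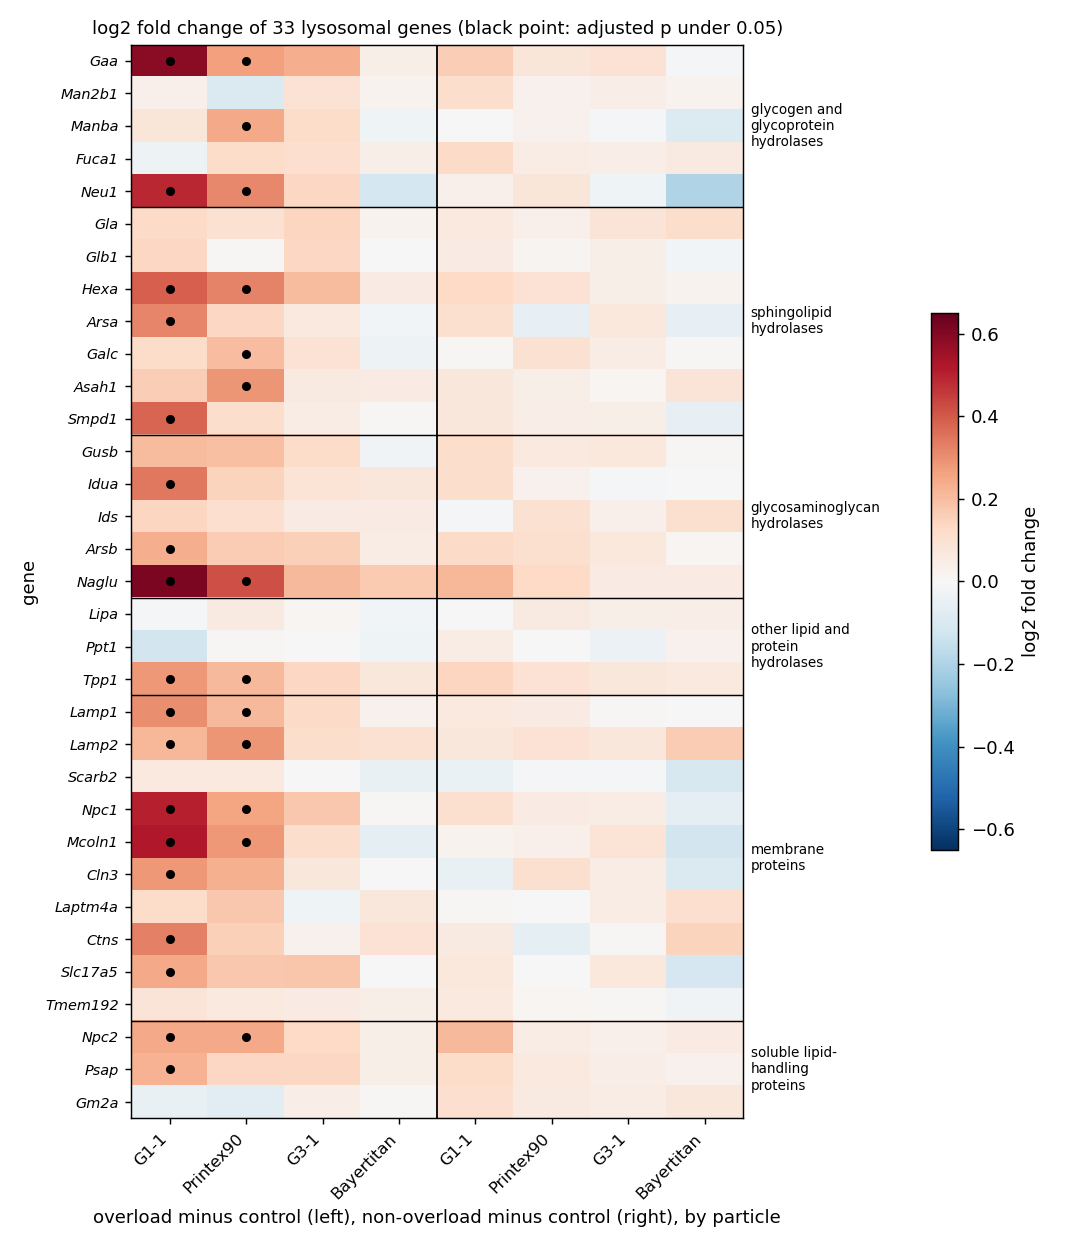
log2 fold change (colour scale) of the 33 genes (rows, grouped by role) for overload minus control (left 4 columns) and non-overload minus control (right 4 columns) of each particle, with a black point where the adjusted p was under 0.05. Points stand in 18 rows for G1-1 overload and 13 for Printex90 overload, and in 0 for the other columns.

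In Printex90 overload 13 of the 33 genes were higher and 0 lower than in Printex90 control at an adjusted p under 0.05 (edgeR), where 14.8% of all genes tested were called and 7.45% were higher. The median log2 fold change was 0.17 over the 33 genes, against -0.01 over all genes tested. Overload libraries were all above the control libraries for 19 of the 33 genes and for 2507 of the 14606 genes tested. Taking both directions, 57.6% of the 33 genes and 32% of all genes tested had no overlap. The count was sensitive to single libraries: it was 5 without Printex90 control replicate 2, 6 without control replicate 1 and 7 without overload replicate 1, and the calls of Naglu, Mcoln1, Lamp2, Asah1 and Gaa were kept whichever of the 6 libraries was left out. Galc, Npc2 and Tpp1 lost theirs in 5 of the 6 fits without 1 library (adjusted p up to 0.196, 0.132 and 0.159), Manba in 4, Lamp1 and Npc1 in 3, Hexa in 2 and Neu1 in 1 (adjusted p up to 0.16, 0.106, 0.0706, 0.0599 and 0.058). The lysosomal genes took 2.24 ± 0.0344% of the counts in Printex90 overload and 2.15 ± 0.124% in Printex90 control (SD, n = 3 each). These groups overlapped, at 2.21 to 2.28% and 2.07 to 2.29%.

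Naglu was again the gene with the smallest p among the 33. It was at 160, 154 and 149 CPM in Printex90 overload, against 113, 109 and 123 CPM in Printex90 control, with no overlap and a log2 fold change of 0.42 ± 0.07 (edgeR adjusted p = 0.000145). Mcoln1 was at 46.9, 46.5 and 46.4 CPM in Printex90 overload, against 38.7, 37.3 and 39.1 CPM in Printex90 control. These overload libraries lay within 1 CPM of each other and above all controls, and the log2 fold change was 0.28 ± 0.06 (adjusted p = 0.00236). Lamp2 was at 835, 773 and 801 CPM in Printex90 overload, against 640, 631 and 707 CPM in Printex90 control. Its groups were apart, with a log2 fold change of 0.28 ± 0.07 (adjusted p = 0.0041). Asah1, the acid ceramidase, was at 552, 511 and 533 CPM in Printex90 overload, against 417, 418 and 472 CPM in Printex90 control. Overload lay above control in every library, with a log2 fold change of 0.29 ± 0.07 (adjusted p = 0.00503). The same gene had 487, 413 and 494 CPM in G1-1 overload, against 424, 417 and 409 CPM in G1-1 control, where the groups overlapped and the log2 fold change of 0.16 ± 0.07 was not called (adjusted p = 0.089).

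Of the genes called, 10 were called in both G1-1 and Printex90 overload, 55.6% of the 18 in G1-1 and 76.9% of the 13 in Printex90: Gaa, Neu1, Hexa, Naglu, Tpp1, Lamp1, Lamp2, Npc1, Mcoln1 and Npc2. Called in Printex90 overload and not in G1-1 overload were Manba, the beta-mannosidase, with 0.25 ± 0.08 against 0.08 ± 0.08 on the log2 scale, Galc, the galactosylceramidase, with 0.20 ± 0.07 against 0.12 ± 0.07, and Asah1. For none of these 3 was the difference between the particles called. Neither particle gave a call for 12 genes: Man2b1, Fuca1, Gla, Glb1, Gusb, Ids, Lipa, Ppt1, Scarb2, Laptm4a, Tmem192 and Gm2a. Of the 14 genes with a promoter sequence that were called in G1-1 overload, 5 held CACGTG, and 2 of the 13 that were not called held it, which is a description of these promoters.

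In G3-1 overload 0 of the 33 genes were called at an adjusted p under 0.05 (edgeR), with 0.568% of all genes tested called. At an unadjusted p under 0.05 there were 6 of the 33, and DESeq2 called 1. The share of all genes is not given for these last counts. The responses were nevertheless mostly of one sign: 31 of 33 were positive, with a median log2 fold change of 0.11 against -0.01 over all genes tested. Gaa was at 341, 355 and 408 CPM in G3-1 overload, against 310, 282 and 343 CPM in G3-1 control, so that the lowest overload library fell just below the highest control (log2 fold change 0.24 ± 0.07, adjusted p = 0.117). Naglu was at 112, 125 and 135 CPM in G3-1 overload, against 105, 98.8 and 118 CPM in G3-1 control, again with overlap (0.21 ± 0.07, adjusted p = 0.205). Mcoln1 was at 36.9, 37.2 and 38.4 CPM in G3-1 overload, against 36.5, 32.0 and 35.4 CPM in G3-1 control, apart by a small margin (0.12 ± 0.06, adjusted p = 0.434). Every overload library exceeded the controls for 2 of the 33 genes, Mcoln1 and Slc17a5, and for 905 of the 14606 genes tested. Taking both directions, 6.06% of the 33 genes and 11.6% of all genes tested had no overlap. Without control replicate 3 of G3-1, 2 of the 33 genes were called. The 2 G3-1 control libraries with high Col3a1 were the lowest of that group for Gaa, Neu1, Hexa and Npc1, and of the G3-1 overload libraries the one without high Col3a1 was the highest for the same 4 genes. These genes were picked after their values were seen, and not all genes followed. Mcoln1 in G3-1 control was at 36.5 CPM in replicate 1, with high Col3a1, and 35.4 CPM in replicate 3, without it. Lamp2 in G3-1 overload was at 713 CPM in replicate 2, with high Col3a1, and 701 CPM in replicate 3. Replicate 3 also had the lowest mean log2 CPM of epithelial markers in both groups, 3.94 in control and 3.95 in overload.

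In Bayertitan overload none of the 33 genes was called, 1 had an unadjusted p under 0.05 (edgeR; 0 called by DESeq2), and 0.329% of all genes tested were called. The median log2 fold change was 0.02, against 0.00 over all genes tested, with a range from -0.12 to 0.17. The libraries did not overlap for 10 of the 33 genes (8 higher and 2 lower in overload; 30.3%), against 15.7% of all genes tested. Naglu was the gene with the unadjusted p under 0.05, at 126, 138 and 127 CPM in Bayertitan overload, against 109, 118 and 120 CPM in Bayertitan control (0.17 ± 0.07, adjusted p = 0.493), without overlap. Gaa was at 341, 359 and 349 CPM in Bayertitan overload, against 326, 350 and 346 CPM in Bayertitan control (0.04, 95% interval -0.10 to 0.18). Neu1 was at 71.0, 80.1 and 78.1 CPM in Bayertitan overload, against 80.4, 85.8 and 82.3 CPM in Bayertitan control, with every overload library below the controls (-0.12, interval -0.28 to 0.04). For Gaa, Neu1, Mcoln1 and Npc1 the upper bound of the interval in Bayertitan, between 0.04 and 0.18, was below the lower bound in G1-1, between 0.33 and 0.45.

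**Figure D3:**
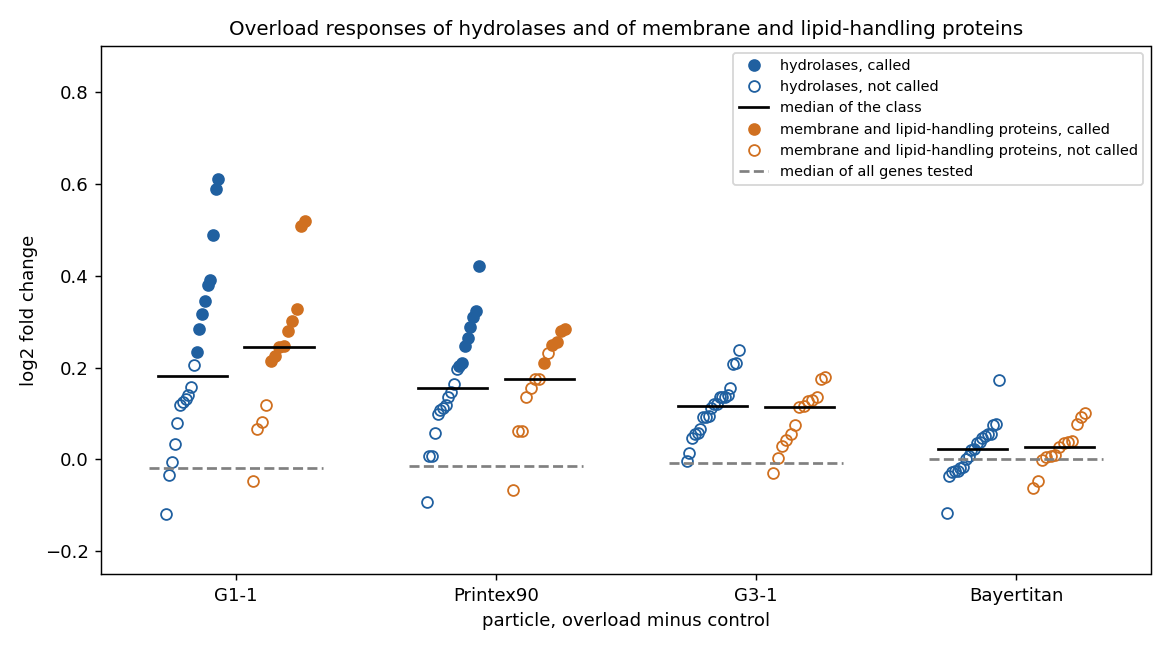
log2 fold change of overload minus control (vertical axis) for the 20 hydrolases and the 13 membrane and lipid-handling proteins by particle (horizontal axis), with filled points for genes called at an adjusted p under 0.05, solid lines for class medians and dashed lines for the median of all genes tested. The medians of both classes lie above the dashed line in G1-1, Printex90 and G3-1, with single genes such as Ppt1 in G1-1 below it, and the class medians in G1-1 are 0.18 for hydrolases and 0.24 for membrane and lipid-handling proteins.

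Both hydrolases and membrane and lipid-handling proteins had genes called in G1-1 and Printex90 overload. In G1-1 overload 9 of 20 hydrolases (45%) and 9 of 13 membrane and lipid-handling proteins (69.2%) were called as higher, with medians of 0.18 and 0.24 on the log2 scale. Over all genes tested, 28.1% were called there, 13.7% as higher, and in Printex90 overload 14.8%, 7.45% as higher. In Printex90 overload the counts were 8 of 20 (40%) and 5 of 13 (38.5%), with medians of 0.15 and 0.18, and in G3-1 overload the medians were 0.12 and 0.11 without a call. Within each class the estimates differed: the acid lipase Lipa and the thioesterase Ppt1 were near or below 0 beside Naglu and Gaa. Scarb2, the receptor that carries glucocerebrosidase to lysosomes, and Tmem192 had estimates within 0.10 of 0 in all 4 overload responses beside Mcoln1 and Npc1. In G1-1 overload the 95% intervals of Scarb2 and Tmem192 ran from -0.08 to 0.21 and from -0.04 to 0.20. That of Lipa in Printex90 overload ran from -0.10 to 0.21, so small rises were not excluded. Scarb2 and Tmem192 were picked after their values were seen. By substrate, 3 of 5 glycosaminoglycan hydrolases, 3 of 7 sphingolipid hydrolases and 2 of 5 glycogen and glycoprotein hydrolases were called in G1-1 overload, where 28.1% of all genes tested were called. Counts over so few genes are a description. The difference between the classes was not tested.

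The particles were compared with each other by the difference between their overload responses. G1-1 exceeded Printex90 in 2 of the 33 genes, Smpd1 by 0.27 ± 0.08 and Gaa by 0.32 ± 0.10 on the log2 scale (edgeR adjusted p = 0.0231 and 0.0276), where 11.1% of all genes tested differed. Smpd1 was at 75.1, 72.2 and 73.8 CPM in Printex90 overload, against 66.4, 66.8 and 71.5 CPM in Printex90 control, and Gaa was at 408, 397 and 402 CPM in Printex90 overload, against 321, 327 and 356 CPM in Printex90 control. In both genes the Printex90 groups were apart as well, by less than in G1-1. The 2 calls rest on single libraries, and 0 remained without G1-1 control replicate 2, G1-1 overload replicate 3, Printex90 control replicate 3 or Printex90 overload replicate 2, and 1 without G1-1 control replicate 1 or 3 or Printex90 overload replicate 3.

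G1-1 exceeded G3-1 in 6 genes, with 9.28% of all genes tested called. The smallest p-values were those of Mcoln1, with a difference of 0.40 ± 0.09, and Smpd1, with 0.33 ± 0.08 (edgeR adjusted p = 0.00226 and 0.00505). Smpd1 was at 67.5, 66.0 and 73.1 CPM in G3-1 overload, against 65.6, 61.8 and 72.8 CPM in G3-1 control, and the groups overlapped. Naglu, Gaa, Neu1 and Npc1 were the other 4, and the count was 3 without G1-1 control replicate 2, G1-1 overload replicate 3, G3-1 control replicate 3 or G3-1 overload replicate 1. Mcoln1, Smpd1 and Naglu kept their calls whichever of the 12 libraries was left out.

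G1-1 exceeded Bayertitan in 8 genes, with 12.3% of all genes tested called: Mcoln1 by 0.58 ± 0.09 and Gaa by 0.55 ± 0.10 (edgeR adjusted p = 2.42e-05 and 0.000229), and also Neu1, Npc1, Smpd1, Naglu, Arsa and Lamp1. Mcoln1 was at 34.1, 40.0 and 39.9 CPM in Bayertitan overload, against 38.2, 39.5 and 41.4 CPM in Bayertitan control, and the groups overlapped. Arsa lost its call in 6 and Lamp1 in 9 of the 12 fits without 1 library (adjusted p up to 0.0866 and 0.138), and the other 6 kept theirs. Printex90 exceeded Bayertitan in Mcoln1 and Neu1, by 0.34 ± 0.09 and 0.43 ± 0.11 (adjusted p = 0.0421 and 0.0484), with 1.18% of all genes tested called, and the count changed whichever of the 12 libraries was left out. The count was 0 without Printex90 control replicate 1 or 2, Printex90 overload replicate 1 or 2, Bayertitan control replicate 2 or 3 or Bayertitan overload replicate 1. It was 1 without Printex90 overload replicate 3, Bayertitan control replicate 1 or Bayertitan overload replicate 2 or 3, and 3 without Printex90 control replicate 3. Neu1 was at 102, 104 and 95.8 CPM in Printex90 overload, against 79.2, 75.0 and 89.4 CPM in Printex90 control. Between Printex90 and G3-1, and between G3-1 and Bayertitan, 0 of the 33 genes were called (3 each at an unadjusted p under 0.05), with 0.644% and 0% of all genes tested.

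The G1-1 response was the largest of the 4 for 20 of the 33 genes, that of Printex90 for 9, that of G3-1 for 4 and that of Bayertitan for 0. All 4 responses were positive for 19 of the 33 genes (57.6%) and for 15.3% of all genes tested. They were negative in all 4 for 0 of the 33 genes and for 18% of all genes. Averaged over the particles, 22 genes rose and 0 fell (edgeR), where 31.9% of all genes tested were called and 14.4% were higher, and the median was 0.14 on the log2 scale. The mean responses of Naglu, Gaa, Hexa, Npc1 and Mcoln1 were 0.35 ± 0.04, 0.28 ± 0.03, 0.24 ± 0.04, 0.24 ± 0.03 and 0.21 ± 0.03 (SE).

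Non-overload exposure gave no call among the 33 genes for any particle. The lowest adjusted p (edgeR) was 0.201, for Naglu in G1-1, and 0.459%, 0.205%, 0% and 0.335% of all genes tested were called in G1-1, Printex90, G3-1 and Bayertitan. At an unadjusted p under 0.05 there were 3, 0, 0 and 2 of the 33 genes. DESeq2 also called 0. In G1-1, Naglu was at 125, 129 and 120 CPM in non-overload, against 109, 104 and 108 CPM in control, a small step without overlap (0.22 ± 0.07), while Mcoln1 was at 38.6, 38.2 and 38.0 CPM in non-overload, against 38.7, 36.2 and 38.0 CPM in control. Of these libraries, those of Naglu were apart and those of Mcoln1 overlapped. Group means rose in order over control, non-overload and overload for 25 of the 33 genes in G1-1, 24 in Printex90, 24 in G3-1 and 7 in Bayertitan, while 22.8%, 25%, 21.8% and 16.2% of all genes tested were in that order.

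Overload was also set against non-overload of the same particle, with the overload libraries in common with the comparison against control. In G1-1, 12 genes were higher and 0 lower (edgeR), with 22.7% of all genes tested called. Mcoln1, at 0.49 ± 0.06, had the smallest p among them (adjusted p = 4.52e-07), followed by Gaa, Npc1, Neu1, Naglu and Smpd1. The other 6 were Hexa, Arsa, Idua, Lamp1, Cln3 and Ctns, and without G1-1 overload replicate 3 they were not called and the count was 6. In Printex90, Naglu, Mcoln1 and Asah1 were called (0.29 ± 0.07, 0.25 ± 0.06 and 0.25 ± 0.07), with 3.51% of all genes tested, and the count was 0 without non-overload replicate 1 or 2 or overload replicate 1 or 2, 1 without overload replicate 3 and 5 without non-overload replicate 3. In G3-1 and Bayertitan 0 were called, with 0.0274% and 0% of all genes tested, and 3 and 0 had an unadjusted p under 0.05. Leaving out the libraries of high Col3a1 kept 1 G3-1 overload library, replicate 3, beside 3 non-overload libraries. What that fit calls in G3-1 rests on 1 overload library, without a spread between G3-1 overload libraries, and is a description of that library. In G3-1, where 2 of the 3 overload libraries had high Col3a1, 9 genes were called when fibroblast markers entered as a covariate (6.5% of all genes tested) and 4 without the libraries of high Col3a1 (2.14% of all genes tested), each of them higher in overload.

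Other genes of the lysosome, not on the list of 34 and also chosen with earlier results known, were counted beside these, to be read against the 28.1% of all genes tested that were called in G1-1 overload (13.7% as higher) and the 14.8% in Printex90 overload (7.45% as higher). These lists were broad, and not every gene on them is strictly of the kind named. Of 24 genes listed as other lysosomal hydrolases, 13 rose in G1-1 overload (54.2%) and 8 in Printex90 overload (33.3%), and 0 fell. Of 30 other lysosomal membrane proteins, 15 rose and 0 fell in G1-1 overload (50%), and 4 rose and 1 fell in Printex90 overload (16.7%, close to all genes). Of 17 genes of the vacuolar ATPase, the pump that acidifies lysosomes, 7 rose and 1 fell in G1-1 overload (47.1%), and 6 rose in Printex90 overload (35.3%). Of 12 cathepsins and legumain, 4 rose and 3 fell in G1-1 overload (58.3%), and 3 rose and 2 fell in Printex90 overload (41.7%). Of 22 genes that deliver enzymes to lysosomes, such as mannose-6-phosphate receptors, 6 rose and 2 fell in G1-1 overload (36.4%) and 5 rose in Printex90 overload (22.7%).

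The level of epithelial markers in the overload libraries of G1-1 and Printex90 lay below that of their controls. Over the 11 epithelial markers tested, the mean log2 CPM was 3.96 ± 0.35 in G1-1 overload and 4.67 ± 0.21 in G1-1 control, and 3.25 ± 0.01 in Printex90 overload and 4.26 ± 0.60 in Printex90 control (SD, n = 3 each). It was 4.08 ± 0.18 in G3-1 overload and 4.39 ± 0.39 in G3-1 control, and 4.24 ± 0.09 in Bayertitan overload and 4.27 ± 0.03 in Bayertitan control. Summed over all 13 markers, they ranged from 1194 to 1765 CPM in G1-1 overload and from 1591 to 2140 CPM in G1-1 control, and from 1112 to 1372 CPM in Printex90 overload and from 1109 to 2072 CPM in Printex90 control. Of the 11, 2 fell in G1-1 overload (18.2%, where 28.1% of all genes tested were called) and 4 in Printex90 overload (36.4%, where 14.8% were called), and 0 in G3-1 overload. Their median log2 fold changes were -0.47, -0.53 and -0.32. Within a group of controls, Printex90 control replicate 3 had the lowest epithelial level, 3.59, and the highest Hexa, 392 CPM, while replicates 1 and 2 had levels of 4.73 and 4.47 and Hexa at 324 and 332 CPM, an example chosen after its values were seen.

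With the epithelial marker level as a term in the fit, the calls changed. In G1-1 overload, 11 of the 33 genes were higher and 5 lower (edgeR; 28.1% of all genes tested called), with a median log2 fold change of 0.06. Naglu, Gaa, Mcoln1, Npc1, Neu1 and Smpd1 remained higher, at 0.47 ± 0.07, 0.46 ± 0.07, 0.45 ± 0.07, 0.34 ± 0.05, 0.34 ± 0.07 and 0.29 ± 0.06. The 5 lower genes were Fuca1, Lipa, Ppt1, Scarb2 and Gm2a. In Printex90 overload, 0 were higher and 5 lower (8.58% of all genes tested called), with Naglu at 0.22 ± 0.08 (adjusted p = 0.0838) and Mcoln1 at 0.19 ± 0.08 (adjusted p = 0.16), and with Man2b1, Lipa, Ppt1, Scarb2 and Gm2a lower by 0.21 to 0.30. In the mean over the particles, Gaa, Naglu, Npc1 and Mcoln1 stayed higher and 4 genes were lower (19.2% of all genes tested called). The epithelial level and overload moved together in G1-1 and Printex90, and their parts in the responses cannot be told apart.

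**Figure D4:**
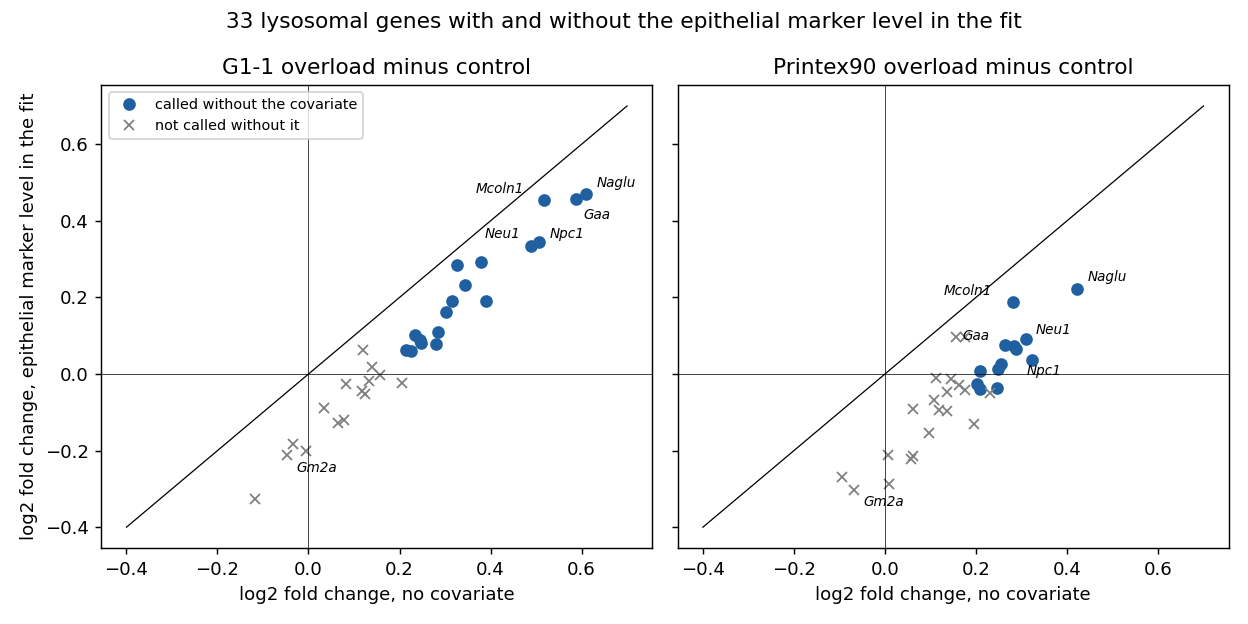
log2 fold change of the 33 genes in overload minus control without (horizontal axis) and with (vertical axis) the epithelial marker level in the fit, for G1-1 (left) and Printex90 (right), with filled points for genes called without it and a line where both are equal. Points lie below the line in both panels, and in G1-1 Naglu, Gaa and Mcoln1 stay at 0.45 or more.

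Of the 10 alveolar macrophage markers tested, 2 rose and 4 fell in G1-1 overload (60%, where 28.1% of all genes tested were called), with log2 fold changes from -1.85 to 0.61, and 2 rose and 2 fell in Printex90 overload (40%, where 14.8% were called). Their mean log2 CPM was 7.67 ± 0.20 in G1-1 overload and 7.88 ± 0.10 in G1-1 control, and 7.91 ± 0.07 in Printex90 overload and 8.01 ± 0.15 in Printex90 control (SD, n = 3 each), groups that overlapped for both particles. Summed neutrophil markers ranged from 313 to 392 CPM in G1-1 overload and from 176 to 193 CPM in G1-1 control, and from 336 to 354 CPM in Printex90 overload and from 190 to 210 CPM in Printex90 control. Most of that sum was Cxcr1, at 139 to 349 CPM over all libraries, while the granule gene Mpo was at 0 in 33 of 36 libraries and Elane in 24. Of the 6 neutrophil markers tested, 2 rose in each of the 2 particles (33.3%, where 28.1% and 14.8% of all genes tested were called). Their median log2 fold changes were -0.10 in G1-1 and 0.13 in Printex90. Summed T lymphocyte markers ranged from 67.0 to 87.8 CPM in G1-1 overload and from 103 to 126 CPM in G1-1 control, and from 81.4 to 98.9 CPM in Printex90 overload and from 105 to 139 CPM in Printex90 control. Nearly all of it was Cd4, at 66.3 to 139 CPM, while Cd3d, Cd3e and Cd3g did not exceed 0.204 CPM in any library. The part of these lists in the lysosomal responses was not tested. Without the 8 libraries of high Col3a1, 24 of the 33 genes were called as higher in G1-1 overload and 13 in Printex90 overload, and 0 as lower in either, with 30.7% and 11.7% of all genes tested called.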

How the data were processed

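RNA from primary rat alveolar macrophages was measured in 36 libraries of 12 groups, 3 each. The authors deposited a table of expected counts per gene, 30.5% of whose values had decimals. The submitters' processing notes name Salmon, FastQC, MultiQC and Rnor_6.0; the sources used here give neither versions nor whether counting used strand, so genes that overlap others are uncertain. Library preparation removed ribosomal RNA, per the labels' protocols.

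Expected counts were rounded to whole numbers. Of 23487 genes, 3287 had no count, and 14606 passed edgeR's filterByExpr (minimum count 10, minimum total count 15). TMM scaling and the quasi-likelihood test of edgeR 4.0.16 (limma 3.58.1, R 4.3.3) were applied in 1 fit of 12 groups with 24 residual degrees of freedom. P-values were adjusted by Benjamini-Hochberg over all genes tested in each of 19 comparisons, and an adjusted p under 0.05 was called. Counts at an unadjusted p, and counts by DESeq2, are given without the share of all genes under the same rule. They are not set against all genes. Levels are CPM on TMM-scaled library sizes, depend on gene length and were not compared between genes. Fold changes are log2, with overload (or non-overload) over its own control. Replicates differed by more than sampling noise (chi-square per degree of freedom 3.71 to 35.4), and the common coefficient of biological variation was 0.103. Precision at 26.1 to 43.2 M counts is given by standard errors.

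The members and lists were chosen with earlier results of these data known. Values in every library were given for the 4 called genes with the smallest p in each overload comparison and the 2 in each difference between particles; others shown were chosen after their values were seen. Sgsh was not analysed here.

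Replicate numbers were checked for pairing: correlations of deviations between same-numbered libraries ran from -0.247 to 0.542, with 9 of 36 over 0.1, so numbers were not taken as pairs. Alternatives were RLE scaling, no filter, DESeq2 1.42.0, fits of the compared particles alone, a replicate block, fibroblast or epithelial marker level as a covariate, leaving out the libraries with Col3a1 at 10 CPM or more, and leaving out each library in turn. The procedure was tested on simulated data. Promoters are those of RefSeq for GRCr8, a build that differs from that of the counts, and were used as sequences alone.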

Additional observations from a re-analysis of the deposited data

Results flagged for a closer look

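Differences between the overload responses of 2 particles, each tested as such in the edgeR fit with Benjamini-Hochberg adjustment over all genes, passed the threshold in 18 cases among the 33 genes. Values are differences of log2 fold changes with SE. G1-1 exceeded Printex90 for Gaa (0.32 ± 0.10) and Smpd1 (0.27 ± 0.08), where 11.1% of all genes tested were called. Gaa and Smpd1 lost these calls in 6 and 5 of the 12 fits without 1 library.

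G1-1 exceeded G3-1 for Gaa (0.35 ± 0.10), Neu1 (0.35 ± 0.11), Smpd1 (0.33 ± 0.08), Naglu (0.40 ± 0.10), Npc1 (0.33 ± 0.09) and Mcoln1 (0.40 ± 0.09). G1-1 exceeded Bayertitan for Gaa (0.55 ± 0.10), Neu1 (0.61 ± 0.11), Arsa (0.34 ± 0.10), Smpd1 (0.37 ± 0.08), Naglu (0.44 ± 0.10), Lamp1 (0.27 ± 0.09), Npc1 (0.50 ± 0.09) and Mcoln1 (0.58 ± 0.09). Printex90 exceeded Bayertitan for Neu1 (0.43 ± 0.11) and Mcoln1 (0.34 ± 0.09). Of all genes tested, 9.28%, 12.3% and 1.18% were called in these comparisons, in that order. Without single libraries, Gaa, Neu1 and Npc1 (G1-1 minus G3-1) lost their calls in 5, 7 and 5 of 12 fits. Arsa and Lamp1 (G1-1 minus Bayertitan) lost theirs in 6 and 9 of 12. Neu1 and Mcoln1 (Printex90 minus Bayertitan) lost theirs in 10 and 8 of 12. The amount of each particle taken as overload was not given in the sources used here, so particle kind and amount cannot be told apart.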

How the results depend on the processing

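Of 86 fold changes called, 86 kept direction and call under RLE scaling, DESeq2 and a fibroblast covariate, 81 without the filter, 78 without the libraries of high Col3a1, 52 of 64 in fits of the compared particles alone (not run for the mean response), and 871 of 1020 without single libraries, where 0 reversed. With the epithelial covariate 39 did, and 6 reversed: Manba -0.0358, Galc -0.0272 and Tpp1 -0.0379 in Printex90, and Manba -0.0395, Galc -0.0225 and Ids -2e-04 in the mean. Counts of called genes that moved by over 1.5 times were, with that covariate, 5 for Printex90 overload against control, 8 for the mean, 6 for G1-1 minus Printex90, 1 for Printex90 minus G3-1 and 0 for Printex90 minus Bayertitan. With the fibroblast covariate they were 1 for G3-1 overload and 2 for G1-1 non-overload against control, 21, 5 and 9 for overload against non-overload in G1-1, Printex90 and G3-1, and 12, 12 and 18 for G1-1 minus Printex90, G3-1 and Bayertitan. Without the libraries of high Col3a1 they were 20, 1 and 4 for overload against non-overload in that order of particles, and 6, 14 and 0 for G1-1 minus Printex90, G1-1 minus Bayertitan and Printex90 minus Bayertitan. DESeq2 gave 1 for G3-1 overload against control, the fit of Printex90 alone 1 for its overload against non-overload, and no filter 1 for Printex90 minus Bayertitan. Without the libraries of high Col3a1, the G3-1 count for overload against non-overload rests on 1 overload library, replicate 3. The share of all genes tested that was called moved as well. With the fibroblast covariate it went from 0.0274% to 6.5% in G3-1 overload against non-overload. With the epithelial covariate it went from 14.8% to 8.58% in Printex90 overload against control. For most of the fits in this paragraph that share is not given, so their counts are not set against all genes. The counts are therefore not a result about the lysosomal genes alone, and the causes were not tested.

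Without single libraries, counts ran from 13 to 22 in G1-1, 5 to 18 in Printex90 and 0 to 2 in G3-1 for overload against control, from 6 to 16 in G1-1 and 0 to 5 in Printex90 for overload against non-overload, and from 19 to 26 for the mean. For differences they ran from 0 to 3 (G1-1 minus Printex90), 3 to 8 (minus G3-1), 6 to 11 (minus Bayertitan) and 0 to 3 (Printex90 minus Bayertitan). Shares of all genes tested are not given for these fits or for the block fit below, so these counts are not set against all genes. A replicate block, although numbers were not taken as pairs, gave 18, 14, 0 and 0 called genes for overload against control in G1-1, Printex90, G3-1 and Bayertitan. It kept all 86 calls. Libraries correlated best with their own number, out of 3 candidates each, in 19 of 36 cases, so pairing was not excluded. With 3 libraries a group, the standard errors set the smallest difference that could be called.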
